A study of Homo sapiens with 6 samples.

Results

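The genes described here are 40 enzymes and carriers of nucleotide and folate metabolism, among them the targets and handlers of the antimetabolites methotrexate, mercaptopurine and cytarabine. They were chosen by gene symbol, and all 40 were found among the 26364 genes of the authors' deposited table. RNA had been sequenced from REH, an established human cell line from B-precursor lymphoblastic leukaemia, in 3 cultures that carried a lentiviral short hairpin against STAT3 (shSTAT3) and 3 that carried a scramble hairpin. All 6 cultures had been kept under puromycin for 3 days and cleared of dead cells, and the replicates are independent experiments; the labels do not say how many hairpins against STAT3 were used. For each gene the authors' deposited table holds the normalized count averaged over all 6 libraries, the log2 fold change and its p-values, but nothing per library. Spread is therefore given as the standard error or 95% interval that a fold change and its p-value imply. The fold changes appear shrunken toward 0, judging by genes with few reads, and the intervals would share this. A positive fold change means higher in shSTAT3. This direction was set from STAT3, which stood at 29.8% of scramble per the authors' deposited table (log2 fold change −1.75, DESeq2 adjusted p = 7.78e-74), so STAT3 does not check the labels.

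Cells make nucleotides in several routes that meet. The purine ring is built step by step on phosphoribosyl pyrophosphate (PRPP) up to inosine monophosphate, which is then turned into AMP or GMP, while the pyrimidine ring is made first and joined to PRPP afterwards, giving UMP and then CTP. Ribonucleotide reductase converts ribonucleotides to deoxynucleotides, and thymidylate synthase adds the methyl group of thymine with a carbon carried by folate, a step found mainly in dividing cells. Salvage enzymes recover free bases and nucleosides, and some of them activate leukaemia drugs: hypoxanthine phosphoribosyltransferase activates mercaptopurine and deoxycytidine kinase activates cytarabine. Folylpolyglutamate synthase, an enzyme of folate metabolism, traps methotrexate in the cell.

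Of the 40 genes, 17 were lower and 8 higher in shSTAT3 cells at an adjusted p under 0.05 per the authors' deposited table, and 15 did not pass. Over all 12061 genes with an adjusted p, called tested here, 44.5% passed, 23.2% lower and 21.3% higher. The lower share of the 40 genes, 42.5%, was thus above that of all tested genes, and the higher share, 20.0%, was close to it. Genes with more reads are called more often, and 21 of the 40 had a mean of 1000 or more. In that class 16 of 21 were called, against 58.8% of all tested genes, in the class from 200 to under 1000 it was 8 of 16 against 46.5%, and under 200 it was 1 of 3 against 30.5%. The signs of the fold changes were even, with 20 negative and 20 positive and a median of −0.02 on the log2 scale (all tested genes 0.00265), so genes below 0 did not outnumber those above it. At least a 1.5-fold fall was reached by 8 of the 40 genes, and 10.4% of tested genes were called with such a fall. No gene of the 40 rose as far, which 6.96% of tested genes did.

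**Figure D1:**
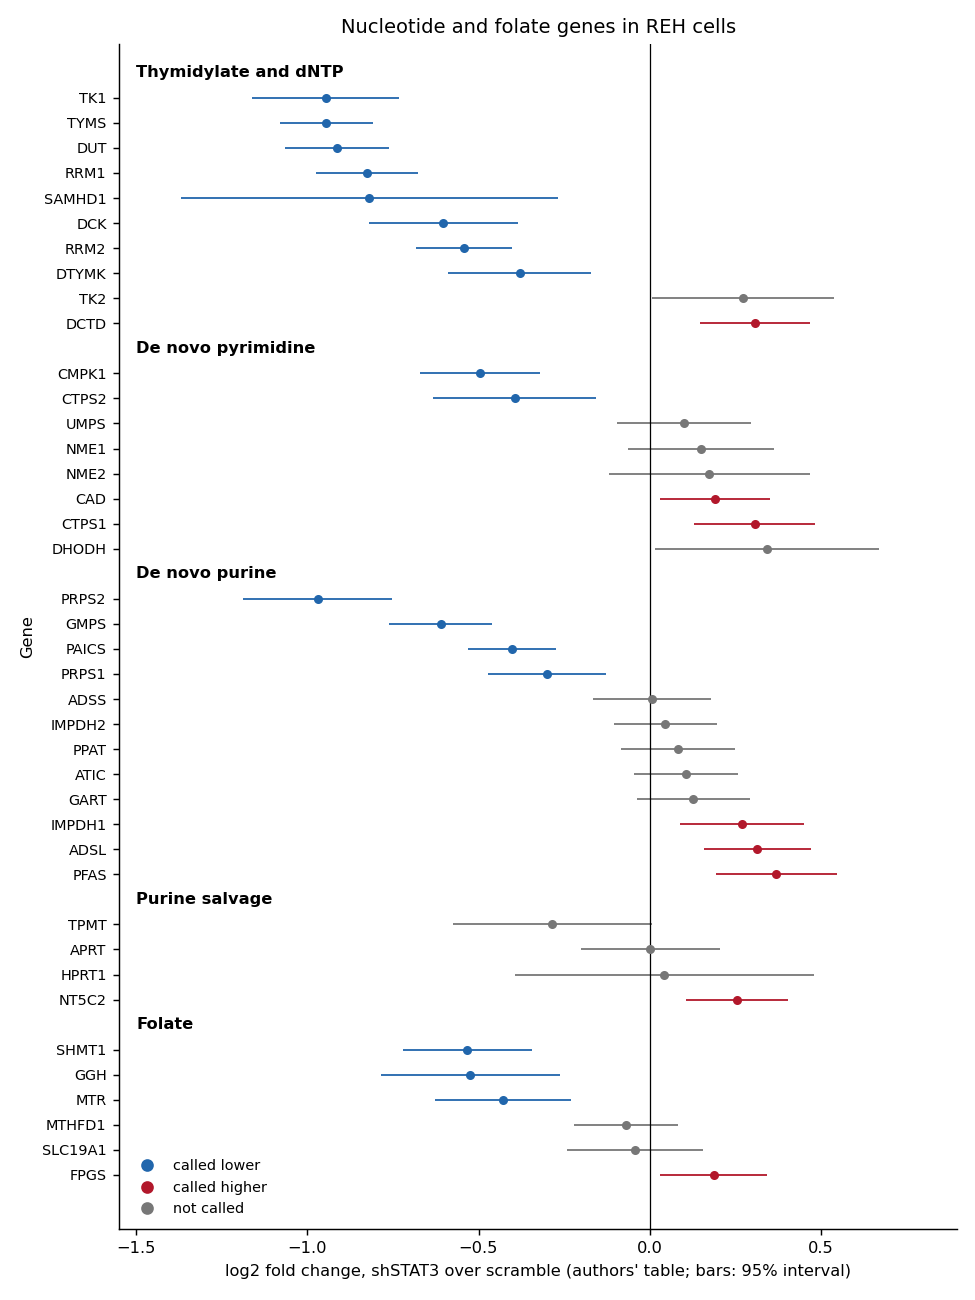
log2 fold change (x axis, shSTAT3 over scramble) of each of the 40 genes by pathway, from the authors' deposited table; points are estimates, bars 95% intervals implied by estimate and p-value, and colour gives the call at an adjusted p under 0.05. The thymidylate and deoxynucleotide genes lie to the left of 0 in 8 of 10 cases, and those of the other pathways in 12 of 30.

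The pathways differed in the share of genes called lower. Thymidylate and deoxynucleotide supply had 8 of 10 genes lower and 1 higher, with a median log2 fold change of −0.71, which corresponds to 61.1% of the scramble level. De novo purine synthesis had 4 of 12 lower and 3 higher with a median of 0.06, and de novo pyrimidine synthesis with its nucleotide kinases had 2 of 8 lower and 2 higher with a median of 0.16. Folate genes were lower in 3 of 6 cases and higher in 1, with a median of −0.25. Among the 4 genes of purine salvage and thiopurine handling none was lower and 1 was higher, with a median of 0.02. Without the thymidylate and deoxynucleotide genes, 9 of the remaining 30 were lower and 7 higher, or 30.0% and 23.3%, beside 23.2% and 21.3% of all tested genes. These counts and medians describe the lists, and no test between pathways was made.

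**Figure D2:**
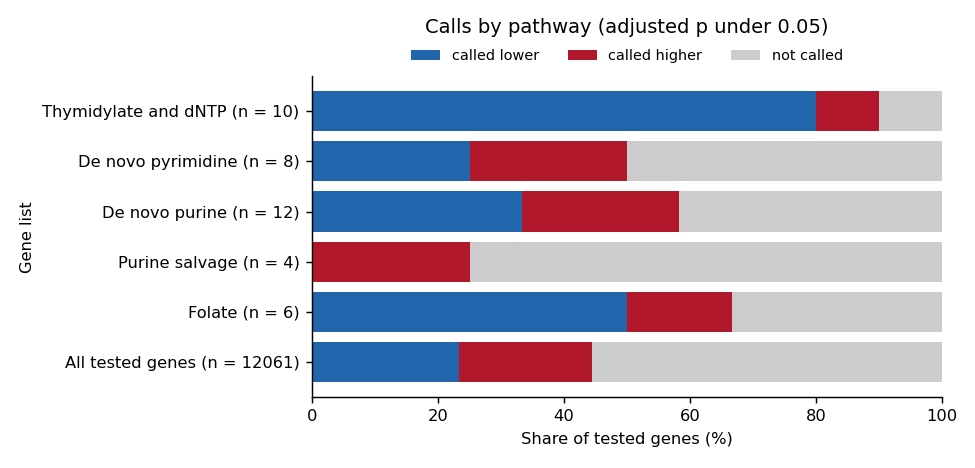
Share of tested genes (x axis, %) that were called lower, called higher or not called at an adjusted p under 0.05, for the 5 pathways and for all 12061 tested genes. The lower share is 80.0% for thymidylate and deoxynucleotide supply and 23.2% for all tested genes.

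The promoters of the genes were searched for motifs, and the matches are shown here because several of the lower genes held 1 of the short sites to which E2F factors, regulators of entry into S phase, are known to bind. Promoter sequences were those of RefSeq on GRCh38.p14, 250 bases upstream of the first listed start, and 37 of the 40 genes had an entry. For 8 of the 37 this start lies over 1000 bases from the GENCODE release 29 start, by 25234 bases for PAICS, 39485 for NT5C2 and 18614 for SLC19A1. Of the genes called higher, PFAS (1671 bases) and FPGS (8261 bases) are among these too, beside NT5C2. The E2F-type motifs searched on both strands were TTTGGCGC, TTTCCCGC, TTTGGCGG, TTTCCCGG and TTTCGCGC. At least 1 of the 5 was present in 5 of 16 lower genes, 0 of 7 higher genes and 2 of 14 genes not called (TPMT and UMPS), together 18.9% of the 37, and in 7.01% of 9060 tested genes and 4.12% of all 27305 promoters. With only starts within 1000 bases of the GENCODE start, it was 5 of 13 lower, 0 of 4 higher and 2 of 12 not called. So few higher genes allow no contrast between lower and higher genes. The 5 lower genes with a match are given with up to 10 bases on either side of the motif, which stands in capitals, and each is written 5′ to 3′ on the strand of its gene. They are TYMS at chr18:657604-657631 (plus strand), DTYMK at chr2:241686865-241686892 (minus strand), PRPS2 at chrX:12791390-12791411 (plus strand), GMPS at chr3:155870539-155870566 (plus strand) and MTR at chr1:236795121-236795148 (plus strand).
TYMS: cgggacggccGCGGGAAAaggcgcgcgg
DTYMK: ttggccgaggCCGGGAAAtactagctaa
PRPS2: gccgccgcgcTTTCCCGCtccc
GMPS: ggccggccggTTTGGCGGcggctgcgga
MTR: aaaagctcccGCGGGAAActggggagcg
The motif begins 39 bases before the RefSeq start in TYMS, 67 in DTYMK, 12 in PRPS2, 101 in GMPS and 150 in MTR. Among genes not called, UMPS holds 1 match 95 bases before its start, and TPMT holds 2, at 44 and 26 bases. GENCODE release 29 starts TYMS, DTYMK, PRPS2 and GMPS further upstream, so by that annotation these 4 matches lie inside the gene, and that of MTR before it. Of the 10 thymidylate and deoxynucleotide genes 2 held a match, TYMS and DTYMK. The windows of TK1, RRM1, RRM2 and DUT held none of these 5 letter strings, and nothing follows from that about E2F at those genes. The share with a match among all tested genes called lower was not computed, and a part of E2F in the changes was not tested. The motifs were chosen with earlier results of these data known, so these shares are description only. With the listed start nearest to the GENCODE start, the same 7 genes held an E2F-type motif, beside 7.08% of 8988 tested genes. The STAT-type motif TTCNNNGAA was found in 1 of 37 windows, that of SHMT1, and in 5.65% of tested genes, and with the nearest start in 2 of 37 (SHMT1 and NT5C2) and 5.62%. The E-box CACGTG was found in 5 of 37 (ATIC, DCK, DHODH, MTHFD1 and PPAT) and in 9.01% of tested genes, and CCAAT in 13 of 37, or 35.1%, beside 35.9% of tested genes.

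Thymidylate and deoxynucleotide genes showed the furthest falls of the 40 genes together with PRPS2. TYMS encodes thymidylate synthase, the target of fluorouracil, and stood at 52.0% of its scramble level per the authors' deposited table (log2 fold change −0.94, with a 95% interval of −1.08 to −0.81, DESeq2 adjusted p = 7.15e-40). It had a mean of 3316 normalized counts per the authors' deposited table and, per kilobase of exon, the highest level of the 40 genes. By p-value TYMS ranked 53 among the tested genes. TYMS lies on chromosome 18 from 657604 to 673578 (GRCh38, GENCODE release 29), and 58.2% of its exon bases overlap exons of ENOSF1 on the opposite strand. The libraries were made with a kit that does not mark strand, so reads in that overlap cannot be told apart. ENOSF1 had a mean of 311 per the authors' deposited table, well under that of TYMS, and a log2 fold change of −0.08 that did not pass (adjusted p = 0.673). The antisense transcript TYMSOS, with a mean of 25.9 per the authors' deposited table, was lower by a log2 fold change of −1.18, and 6.38% of TYMS exon bases overlap it. The overlap covers 106 of the 844 exon bases of TYMSOS, so reads from TYMS could be part of the TYMSOS count.

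TK1, the cytosolic thymidine kinase whose protein is degraded after mitosis, and DUT, which hydrolyses dUTP to keep uracil out of DNA, were close to TYMS. The authors' deposited table gave TK1 at 51.9% of scramble (log2 fold change −0.95, with a 95% interval of −1.16 to −0.73, DESeq2 adjusted p = 1.31e-16). DUT stood at 53.1% of scramble per the authors' deposited table (log2 fold change −0.91, with a 95% interval of −1.07 to −0.76, DESeq2 adjusted p = 6.22e-30). TK1 lies on chromosome 17 from 78174075 to 78187233 and DUT on chromosome 15 from 48331011 to 48343373. DTYMK, which adds the next phosphate to thymidylate, fell less, to 76.9% of scramble per the authors' deposited table (log2 fold change −0.38, adjusted p = 0.00142). The intervals of TYMS, TK1 and DUT all overlapped, and that of DTYMK, −0.59 to −0.17, lay above all of them.

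Both subunits of ribonucleotide reductase fell. RRM1, the large subunit and a target of gemcitabine and clofarabine, was at 56.4% of scramble per the authors' deposited table (log2 fold change −0.83, with a 95% interval of −0.97 to −0.68, DESeq2 adjusted p = 5.8e-26). The smaller subunit RRM2, the target of hydroxyurea, was at 68.7% per the authors' deposited table (log2 fold change −0.54, with a 95% interval of −0.68 to −0.40, DESeq2 adjusted p = 5.68e-13). Their intervals overlapped only just, and their levels per kilobase of exon were similar, at 813 and 732 normalized counts per kilobase for RRM1 and RRM2. The alternative small subunit RRM2B, a p53 target named after its value was seen, was at −0.17 per the authors' deposited table and did not pass (adjusted p = 0.229).

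DCK and SAMHD1, which act on cytarabine in opposite ways, fell as well. DCK, the deoxycytidine kinase that phosphorylates cytarabine and clofarabine, was at 65.9% of scramble per the authors' deposited table (log2 fold change −0.60, with a 95% interval of −0.82 to −0.38, DESeq2 adjusted p = 5.41e-07). SAMHD1, which breaks down deoxynucleotide triphosphates and the active form of cytarabine, was at 56.7% per the authors' deposited table (log2 fold change −0.82, with a 95% interval of −1.37 to −0.27, DESeq2 adjusted p = 0.0104). SAMHD1 had the lowest mean of the 40 genes, 42.6 per the authors' deposited table, and the widest interval. At a threshold of 0.01 it did not pass.

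The exceptions were DCTD and TK2. DCTD, which deaminates dCMP to the dUMP that TYMS methylates and also acts on cytarabine monophosphate, rose to 124% of scramble per the authors' deposited table (log2 fold change 0.31, with a 95% interval of 0.15 to 0.47, DESeq2 adjusted p = 0.000763). TK2, the mitochondrial thymidine kinase, had a log2 fold change of 0.27 that did not pass (adjusted p = 0.088) per the authors' deposited table. The interval of TK2, 0.01 to 0.54, did not overlap that of TK1.

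Beside this group, 3 cell cycle genes chosen after their values were seen were lower too. E2F1, PCNA and the proliferation marker MKI67 stood at log2 fold changes of −1.04, −0.68 and −0.50 per the authors' deposited table. The part of cell cycling in the lower thymidylate and deoxynucleotide genes was not tested, and fewer cycling cells cannot be told apart from less RNA per cell in these bulk samples.

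**Figure D3:**
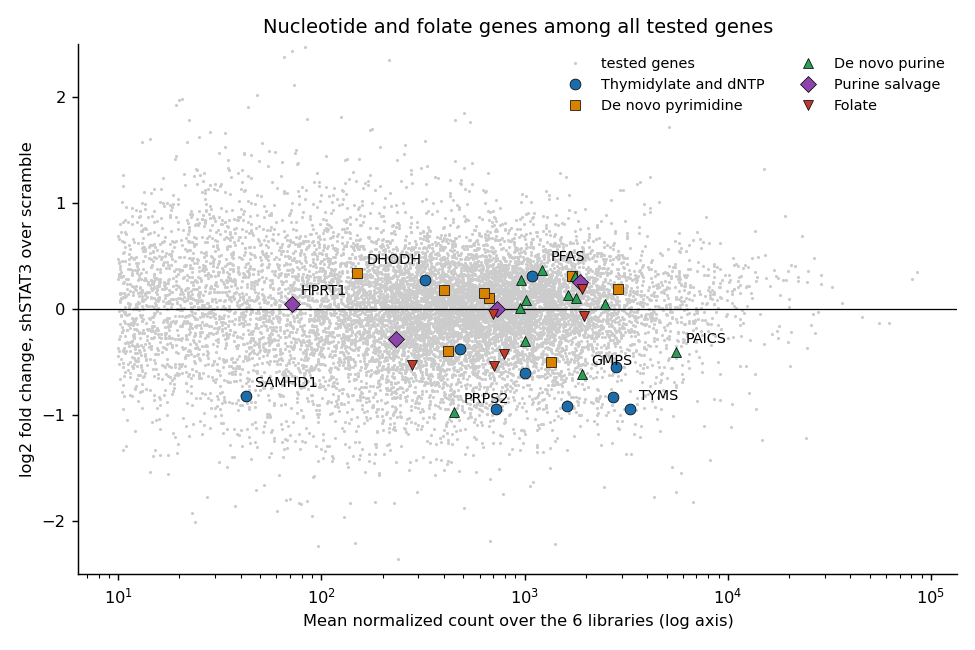
log2 fold change (y axis, shSTAT3 over scramble) against mean normalized count over the 6 libraries (x axis, log scale) per the authors' deposited table, with tested genes in grey and the 40 genes coloured by pathway; 2 tested genes lie outside the y axis. Apart from SAMHD1, the lower thymidylate and deoxynucleotide genes have means between 480 and 3316.

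Of the 8 genes of pyrimidine synthesis and its kinases 4 were called, none of them by 1.5-fold or more. CAD, whose protein carries the first steps of the pathway, was just past the threshold at 114% of scramble per the authors' deposited table (log2 fold change 0.19, with a 95% interval of 0.03 to 0.35, DESeq2 adjusted p = 0.045). It did not pass at 0.01 or when the adjustment was made over all genes with a p-value. DHODH, the mitochondrial enzyme blocked by leflunomide and brequinar, had a log2 fold change of 0.34 per the authors' deposited table and did not pass (a 95% interval of 0.02 to 0.67, adjusted p = 0.083). UMPS, which completes UMP, was at 0.10 per the authors' deposited table (adjusted p = 0.425).

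The CTP synthases moved in opposite directions. CTPS1, the form that lymphocytes need to expand, was at 124% of scramble per the authors' deposited table (log2 fold change 0.31, with a 95% interval of 0.13 to 0.48, DESeq2 adjusted p = 0.00245). CTPS2 was at 76.1% per the authors' deposited table (log2 fold change −0.39, with a 95% interval of −0.63 to −0.16, DESeq2 adjusted p = 0.00407). The intervals did not overlap. Per kilobase of exon CTPS1 had 296 normalized counts and CTPS2 had 86.7, and their coding sequences were identical at 68.4% of aligned positions.

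Among the nucleotide kinases CMPK1, which phosphorylates UMP, CMP and the monophosphates of cytarabine and gemcitabine, fell to 70.9% of scramble per the authors' deposited table (log2 fold change −0.50, with a 95% interval of −0.67 to −0.32, DESeq2 adjusted p = 3.34e-07). NME1 and NME2, the main nucleoside diphosphate kinases, were at log2 fold changes of 0.15 and 0.18 per the authors' deposited table and did not pass (adjusted p = 0.264 and 0.356). These neighbours are 80.9% identical over their coding sequences and share exons with the readthrough gene NME1-NME2, which had a mean of 6.59 per the authors' deposited table, so how shared reads were assigned affects both.

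De novo purine synthesis held genes called in both directions. At the start of the route, both PRPP synthetases were lower. PRPS2 had the largest fall of the 40 genes, to 51.1% of scramble per the authors' deposited table (log2 fold change −0.97, with a 95% interval of −1.19 to −0.75, DESeq2 adjusted p = 6.83e-17). PRPS1 was at 81.2% per the authors' deposited table (log2 fold change −0.30, with a 95% interval of −0.47 to −0.13, DESeq2 adjusted p = 0.00234). The intervals did not overlap, no test of the difference was made here or for the other pairs, and the coding sequences are 79.8% identical. PRPS1 had the higher level of the pair, with 405 normalized counts per kilobase of exon against 165 for PRPS2.

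The enzymes that build the ring gave no common direction. PPAT, which commits PRPP to the pathway, and GART, a folate-dependent enzyme of several steps, had log2 fold changes of 0.08 and 0.13 per the authors' deposited table and did not pass (adjusted p = 0.448 and 0.215). PFAS, which acts between steps of GART, showed the largest rise of the 40 genes per the authors' deposited table, to 129% of scramble (log2 fold change 0.37, with a 95% interval of 0.19 to 0.55, DESeq2 adjusted p = 0.000199). ADSL, which serves both this route and the making of AMP, rose to 124% of scramble per the authors' deposited table (log2 fold change 0.31, with a 95% interval of 0.16 to 0.47, DESeq2 adjusted p = 0.000377). ATIC, the last enzyme before inosine monophosphate and a target of methotrexate polyglutamates, was at 0.11 per the authors' deposited table and did not pass (adjusted p = 0.27).

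PAICS, which acts between PFAS and ADSL, went the other way. It had the highest mean of the 40 genes, 5579 normalized counts, and stood at 75.7% of scramble per the authors' deposited table (log2 fold change −0.40, with a 95% interval of −0.53 to −0.27, DESeq2 adjusted p = 1.24e-08). PAICS and PPAT are neighbours that are read in opposite directions from a common promoter region, PPAT on chromosome 4 from 56393362 to 56435615 and PAICS from 56435741 to 56464579 (GENCODE release 29). The interval of PPAT, −0.08 to 0.25, did not overlap that of PAICS. The 136 bases between the nearest RefSeq starts of the pair, at chr4:56435616-56435751 on the plus strand of GRCh38.p14, are shown because genes with different changes share them.
PPAT-PAICS: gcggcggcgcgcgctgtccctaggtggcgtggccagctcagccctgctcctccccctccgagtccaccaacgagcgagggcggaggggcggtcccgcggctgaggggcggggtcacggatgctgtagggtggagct
This stretch has a GC content of 75.0% and holds none of the E2F-type, STAT-type, E-box or CCAAT letter strings searched.

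**Figure D4:**
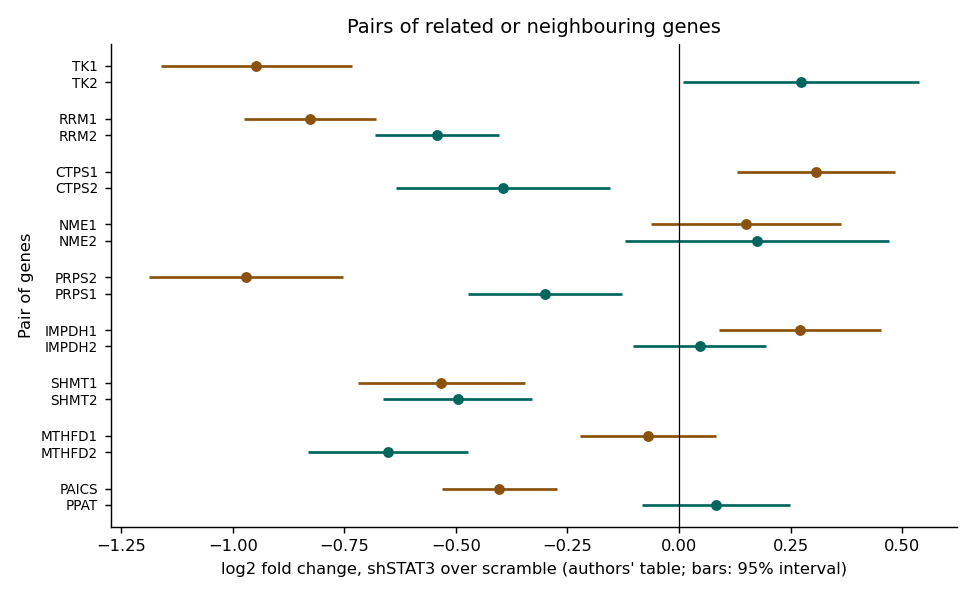
log2 fold change (x axis, shSTAT3 over scramble) with 95% intervals for pairs of related genes, subunits or neighbours per the authors' deposited table; each pair has its own tick labels and colour only separates the members of a pair. The intervals do not overlap for TK1 and TK2, CTPS1 and CTPS2, PRPS2 and PRPS1, MTHFD1 and MTHFD2, and PAICS and PPAT.

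Beyond inosine monophosphate, the guanine branch showed changes in both directions. IMPDH1, one of the isoforms of the enzyme that mycophenolate blocks, rose to 121% of scramble per the authors' deposited table (log2 fold change 0.27, with a 95% interval of 0.09 to 0.45, DESeq2 adjusted p = 0.01003), a call that was lost at a threshold of 0.01. Its abundant isoform IMPDH2 was at 0.05 per the authors' deposited table and did not pass (adjusted p = 0.654), and the intervals of the pair overlapped. Per kilobase of exon IMPDH1 had 321 normalized counts and IMPDH2 had 1515. GMPS, which completes GMP and also acts on thiopurine nucleotides, fell to 65.5% of scramble per the authors' deposited table (log2 fold change −0.61, with a 95% interval of −0.76 to −0.46, DESeq2 adjusted p = 3.9e-14). GMPS lies on chromosome 3 from 155870536 to 155944026. On the adenine branch ADSS, which joins aspartate to inosine monophosphate, was at 0.01 per the authors' deposited table (a 95% interval of −0.16 to 0.18, adjusted p = 0.956).

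Of the salvage and thiopurine genes, only NT5C2 was called. NT5C2 encodes a cytosolic nucleotidase in which activating mutations are known in relapsed leukaemia treated with thiopurines, and it rose to 119% of scramble per the authors' deposited table (log2 fold change 0.26, with a 95% interval of 0.11 to 0.41, DESeq2 adjusted p = 0.00272). Of its exon bases 54.1% overlap CNNM2 on the opposite strand, a gene with a mean of 268, against 1878 for NT5C2, and a log2 fold change of 0.03 per the authors' deposited table. TPMT, which inactivates thiopurines by methylation, was at −0.28 per the authors' deposited table and did not pass (a 95% interval of −0.58 to 0.01, adjusted p = 0.108). HPRT1, which activates mercaptopurine, was at 0.04 with a mean of 71.6 per the authors' deposited table (a 95% interval of −0.39 to 0.48, adjusted p = 0.893). Its level, 50.9 normalized counts per kilobase of exon, ranked 38 among the 40 genes. HPRT1 is among the genes with near copies or overlapping genes, so how shared reads were assigned could affect this level. APRT, the matching enzyme for adenine, had 734 normalized counts per kilobase and a log2 fold change of 0.00230 per the authors' deposited table (a 95% interval of −0.20 to 0.20, adjusted p = 0.989).

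In folate metabolism SHMT1, the cytosolic enzyme that moves a carbon from serine to folate for thymidylate synthesis, fell to 69.1% of scramble per the authors' deposited table (log2 fold change −0.53, with a 95% interval of −0.72 to −0.34, DESeq2 adjusted p = 2.41e-07). MTR, the methionine synthase that uses methyl-folate, fell to 74.3% per the authors' deposited table (log2 fold change −0.43, with a 95% interval of −0.63 to −0.23, DESeq2 adjusted p = 0.00012). SHMT1 shares 6.95% of its exon bases with SMCR8 on the opposite strand, which was higher, at 0.35 per the authors' deposited table. MTHFD1, which interconverts the folates used for purines and thymidylate, was at −0.07 per the authors' deposited table and did not pass (adjusted p = 0.497).

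The enzymes that add and remove the glutamates of methotrexate were called in opposite directions. FPGS, which adds glutamates to methotrexate and so retains it, was at 114% of scramble per the authors' deposited table (log2 fold change 0.19, with a 95% interval of 0.03 to 0.34, DESeq2 adjusted p = 0.0457). As for CAD, this call was lost at 0.01 and when the adjustment was made over all genes with a p-value. GGH, which removes those glutamates, was at 69.5% per the authors' deposited table (log2 fold change −0.52, with a 95% interval of −0.79 to −0.26, DESeq2 adjusted p = 0.0004). SLC19A1, the reduced folate carrier through which methotrexate enters, was at −0.04 per the authors' deposited table (a 95% interval of −0.24 to 0.16, adjusted p = 0.757). The labels name no antimetabolite among the treatments.

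The 87 other genes of these routes, in 4 lists, had 22.2% to 55.6% of their tested members called, beside 62.5% of the 40 genes and 44.5% of all tested genes. The shares of the other purine list, 44.4%, and the other folate list, 46.7%, lay near that background. That of other deoxynucleotide and pyrimidine genes, 22.2%, lay below it, with 16.7% lower beside 23.2% of all tested genes. That of the transporters, 55.6%, lay above it. The lists differ in depth, and genes with more reads are called more often. The median of the tested means was 1006 for the 40 genes and 411 for all tested genes. It was 341 for other deoxynucleotide and pyrimidine genes, 493 for other purine genes, 489 for other folate genes and 242 for transporters. Other deoxynucleotide and pyrimidine genes were lower in 3 of 18 tested cases and higher in 1, with a median log2 fold change of −0.16. CMPK2 and the deoxyribose-phosphate aldolase gene DERA had log2 fold changes of −0.49 and −0.38 per the authors' deposited table, and the nucleotidase gene NT5C was at 0.40. Other purine genes were lower in 5 of 18 tested cases and higher in 3, with a median of −0.07. ADK, the adenosine kinase, fell to 57.5% of scramble per the authors' deposited table (log2 fold change −0.80, with a 95% interval of −1.03 to −0.57, DESeq2 adjusted p = 1.77e-10). The adenylate kinase gene AK1 was at −0.66 and the AMP deaminase gene AMPD2 at 0.29 per the authors' deposited table.

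Other folate genes were lower in 5 of 15 tested cases and higher in 2, with a median of 0.01. The mitochondrial folate enzymes MTHFD2 and SHMT2 were at 63.7% and 70.9% of scramble per the authors' deposited table (log2 fold changes −0.65 and −0.50, DESeq2 adjusted p = 1.88e-11 and 5.6e-08). The intervals of SHMT1 and SHMT2 overlapped, whereas MTHFD2, at −0.83 to −0.47, lay below MTHFD1, at −0.22 to 0.08.

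Transporters of nucleosides and antimetabolites were higher in 4 of 9 tested cases and lower in 1, with a median of 0.24. ABCC5, an exporter of nucleotide analogues and methotrexate, stood at 210% of scramble per the authors' deposited table (log2 fold change 1.07, with a 95% interval of 0.90 to 1.24, DESeq2 adjusted p = 4.65e-32). ABCC10 was at 174% and ABCC1, which also exports methotrexate, at 119% of scramble per the authors' deposited table (log2 fold changes 0.80 and 0.26, DESeq2 adjusted p = 3.61e-07 and 0.00426). SLC29A1, the nucleoside transporter through which cytarabine enters, was at 0.01 per the authors' deposited table (a 95% interval of −0.21 to 0.23, adjusted p = 0.957).

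**Figure D5:**
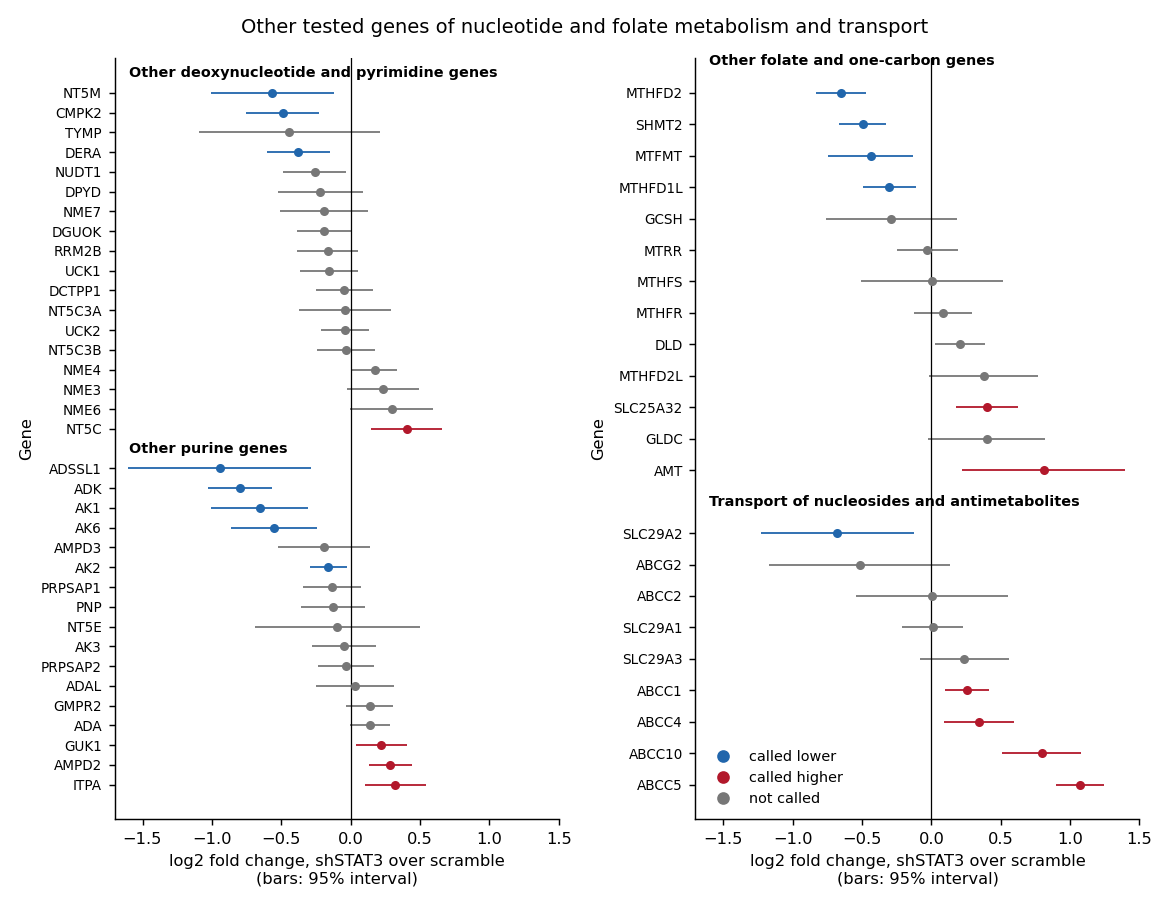
log2 fold change (x axis, shSTAT3 over scramble) with 95% intervals for tested genes of the 4 other lists per the authors' deposited table, coloured by the call at an adjusted p under 0.05. MTHFD2, SHMT2 and ADK lie to the left of 0 and ABCC5 and ABCC10 to the right.

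Exons of another GENCODE gene also overlap 27.9% of the exon bases of RRM2, 28.4% of ADSL, 17.2% of DUT and 17.6% of TK2. None of these partners is listed under its GENCODE name in the authors' deposited table, so no reads are listed for them. For SAMHD1 and GART the overlaps are 18.8% and 5.58%, the partners are listed, and reads there could be counted for either gene. TLDC2, which overlaps SAMHD1, had a mean of 0.147, and SON, which overlaps GART, was at 8510 with a log2 fold change of 0.30 per the authors' deposited table.

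Levels of the 40 genes ranged from 6.91 to 1995 normalized counts per kilobase of exon, and their means added up to 0.456% of all normalized counts, which averaged 11485068 per library. Implied standard errors lay between 0.066 for PAICS and 0.28 for SAMHD1 on the log2 scale, so a change of the size seen for CAD could be called at the depth of CAD and not at that of HPRT1 or SAMHD1. Of the 12 B-cell precursor markers 11 were tested, with means between 1289 and 16549 per the authors' deposited table, and VPREB1 was listed at 0. Of these, 4 were lower and 2 higher, or 54.5% called beside 44.5% of all tested genes. Among tested genes with a mean of 1000 or more, as all of these markers have, 58.8% were called. A fold change without a p-value, which DESeq2 gives where 1 library stands out, was listed for 74 genes, 64 of them negative. None of the 40 genes was among these, and 3 of the 10 myeloid markers were. Of 10 myeloid markers 5 were tested, with 2 lower and 1 higher, or 60.0% called beside the same 44.5%, and MPO had the highest mean among them, 2330 per the authors' deposited table.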

How the data were processed

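Libraries of REH RNA (3 shSTAT3, 3 scramble) were made with TruSeq RNA v2, per the labels' protocols. DESeq2, featureCounts, Bowtie2, Picard, Trimmomatic, bcl2fastq 2.19 and build hg38 appear in the submitters' processing notes, with no order or settings. Which annotation and strand setting were used is not given in the sources used here. Per the file headers, the deposited mean is a normalized signal averaged by the authors over all libraries, the deposited log2 fold change is the authors' estimate, and the deposited p-value has an adjusted form. Fold changes appear shrunken: genes with a mean above 0 and under 0.2 stay within 0.0593 of 0.

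The fit and adjustment are not limited to the 40 genes, and the adjustment covers the genes with an adjusted p. Genes with an adjusted p (12061, lowest mean 10.0) are called tested, and Benjamini-Hochberg adjustment over them gave the deposited values within 2.87e-07. The normal quantile of each p, set against its fold change, gave the standard error. The sign was set from STAT3. Members, lists, pathways, motifs and the naming rule were chosen with earlier results of these data known. That rule gives all 40 members, with full values for those past 1.5-fold, paralogue pairs and drug targets, STAT3, the 3 smallest adjusted p of each other list, and genes fixed by name, among them SHMT2, MTHFD2 and SLC29A1. Some genes of the other lists are not reported here, though the counts and medians of those lists include them. Genes named outside it were chosen after their values were seen. ADSS is ADSS2 in the RefSeq promoter table. Exon lengths are from GENCODE 29, and promoters were 1 per gene, the first listed in RefSeq, with the listed start nearest to the GENCODE start as an alternative added after the values were seen. The classes of mean and the share of calls by class were added after the values were seen. The recomputed steps were first tested on simulated data. With no value per library, the planned model fits were not made and the authors' adjusted p was used. Python 3.11.15, numpy 2.4.6, pandas 2.3.3, scipy 1.17.1, Biopython 1.88 and matplotlib 3.10.9 were used.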

Additional observations from a re-analysis of the deposited data

How the results depend on the processing

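Of the 40 genes, 36 stayed on the same side of the threshold at an adjusted p of 0.01 (SAMHD1, CAD, IMPDH1 and FPGS lost their call), 38 at 0.1 (TK2 and DHODH gained one) and 38 without a filter on the mean (CAD and FPGS lost theirs). With means of at least 50 all 39 genes left stayed on the same side. At 0.01 the genes called higher numbered 5 in place of 8, with pyrimidine genes at 1 and folate genes at 0. At 0.1 the higher thymidylate and deoxynucleotide genes numbered 2. Without a filter pyrimidine genes called higher numbered 1, folate genes 0. At 1.5-fold or more, 8 of the 40 were lower and 0 higher; 2 of the lower were purine genes and the rest were thymidylate and deoxynucleotide genes, and pyrimidine, salvage and folate genes were at 0 in both directions. With means of at least 50, or with SAMHD1 moved to salvage, the thymidylate and deoxynucleotide median was −0.60; the move gave salvage 1 lower gene, and leaving out NME1, NME2 and CMPK1 left 1 lower pyrimidine gene. With transcript length, GC content and mean fitted out, the pyrimidine median was 0.053 in place of 0.16 (the fit covered 89.7% of tested genes and 100% of the 40).

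Among the other lists, 0.01 gave 3 lower and 1 higher purine genes, 1 higher folate gene and 0 lower transporters. At 0.1, 2 deoxynucleotide and pyrimidine genes were higher. Means of at least 50 gave 1 higher folate gene and 0 lower transporters, as did no filter for transporters. Leaving out NME1, NME2, TYMS, PRPS1, RRM2 and HPRT1, which have near copies or overlapping genes, changed no count by over 1.5 times, and centring moved no median beyond its genes' standard error. Of the 40 genes 52.5% were called at 0.01 (34.1% of tested genes), 67.5% at 0.1 (50.6%), 61.5% of 39 with means of at least 50 (48.7%) and 57.5% without a filter (28.7%). At 1.5-fold or more it was 20.0% beside 17.3%, close to the background with both directions pooled. By direction 8 of the 40 genes were lower and 0 higher, beside 10.4% and 6.96% of tested genes. No paired analysis was possible because the deposited table holds no value per library, and for the same reason leaving out replicates and refitting counts were not run.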

Other observations

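MTAP, the salvage enzyme that recovers adenine from methylthioadenosine, had a mean of 0.295 normalized counts over the 6 libraries in the authors' deposited table. Its neighbours CDKN2A and CDKN2B, looked up after that value was seen, were listed at 0. The cytidine deaminase gene CDA, which inactivates cytarabine, had a mean of 0.442, and the uridine phosphorylase gene UPP1 a mean of 0.945, in the authors' deposited table. The proton-coupled folate transporter gene SLC46A1 had a mean of 1.84, and the folate receptor genes FOLR1 and FOLR3 and the exporter ABCB1 were listed at 0 in the authors' deposited table. All but MTAP were named after their values were seen. None of these genes has an adjusted p, and no comparison between groups is given for them here. AK4, a mitochondrial adenylate kinase, was listed with a mean of 87.4, a log2 fold change of −0.92 and no p-value in the authors' deposited table.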
